A study of Mus musculus with 30 samples.

Results

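The cytosolic ribosomal protein genes were followed through the repair of the mouse tibialis anterior, a muscle of the front of the lower leg, after volumetric muscle loss, an injury that takes away a piece of the muscle. Members were taken by gene symbol: every Rpl or Rps symbol with a number and, where present, the ending a, x, l or l1, together with Rplp0, Rplp1, Rplp2 and Rpsa, and without hyphenated pseudogene symbols. The rule gave 84 genes of the 26264 symbols counted. They comprise 43 proteins of the large subunit, 30 of the small subunit, 3 of the stalk and 8 paralogs, namely Rpl3l, Rpl22l1, Rps27l, Rpl7l1, Rpl39l, Rpl10l, Rps4l and Rpl32l. RNA was sequenced from 30 libraries of total RNA in 10 groups of 3: male and female muscle, each either uninjured or injured and taken at 4, 7, 11 or 15 days after injury. The labels give sex, tissue and time. The sources used here give neither strain nor age, and no transgene or drug is named for any group. Whether the 3 libraries of a group come from separate animals is not stated in the labels, so p-values measure only the spread between these samples.

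The ribosome is built from a small subunit, which reads the messenger RNA, and a large subunit, which joins amino acids, each made of ribosomal RNA and many proteins. Most cells make these proteins in near equal amounts from messengers that begin with a short run of pyrimidines, the 5′ terminal oligopyrimidine tract, through which growth signals set their translation. Striated muscle is known for one exchange of subunits: Rpl3l, made in heart and skeletal muscle, takes the place of its ubiquitous relative Rpl3 near the peptidyl transferase centre of the large subunit.

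The start windows of 6 members are shown because the tract is the feature that the family is best known to share. All 6 belong to paralog pairs compared below, and those comparisons use counts and not these windows. Each runs from 20 bases before to 10 bases from the RefSeq transcript start, 5′ to 3′ on the gene's strand. Capitals mark the bases of a tract, here a C within 10 bases of the start followed by at least 6 further C or T, as far as they lie in the window.
Rpl3l: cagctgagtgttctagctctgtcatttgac
Rpl22l1: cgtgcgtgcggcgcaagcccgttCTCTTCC
Rps27: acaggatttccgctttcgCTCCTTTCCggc
Rps27l: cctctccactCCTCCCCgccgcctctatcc
Rpl39: ccccccctaagctccgcctctagcgaCTTC
Rpl39l: cctagctcccaggCCTTTCCggatttccgg
The windows lie at chr17:24727806-24727835 on the plus strand for Rpl3l, chr3:28805488-28805517 on the plus strand for Rpl22l1, chr3:90213639-90213668 on the minus strand for Rps27, chr9:66946066-66946095 on the plus strand for Rps27l, chrX:37085213-37085242 on the minus strand for Rpl39 and chr16:10170208-10170237 on the plus strand for Rpl39l. The build is GRCm38.p6, which is not that of the counts. Rpl3l, the muscle paralog, had no such run at either of its listed starts, and Rps27l had it at only the start shown. Rpl22, the partner of Rpl22l1, had none at either of its listed starts. Rpl4 and Rplp0 had none by this rule. The Rpl4 window does hold a run of C and T that begins more than 10 bases before the start. A tract missed by the rule can thus depend on the listed start and the search distance. Of the 63 members with a window, 31 (49.2%) held one, against 3821 of 27025 genes in the whole table (14.1%). The search was on the gene's strand only, and a match is a description of letters, not a tested site. Rpl3 had no window in the table.

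Depth ran from 13089999 to 57277336 counts per library and was lowest at day 15. Between 65.5% and 77.5% of counts from 1 to 20 were even, so both reads of a pair appear to have been counted. Markers moved with injury in all 4 comparisons: all 10 macrophage markers were higher at every day, all 6 cell cycle markers were higher, and 7 or 8 of 8 fast fibre markers were lower. In CPM (counts scaled to a common library size after TMM adjustment, here and for every CPM level given), the summed fast fibre level ranged from 251312 to 368625 over uninjured libraries, from 4863 to 38062 over those of day 4, and from 45589 to 85897 over those of day 15. The summed macrophage level ranged from 44.5 to 65.1 CPM in uninjured libraries, 2725 to 4029 in day 4 libraries and 300.3 to 1423 in day 15 libraries. The part of these cell type changes in the results below was not tested. In whole muscle, fewer cells of a type and less RNA per cell cannot be told apart. A pair of libraries stood apart. Female day 4 replicate 2 held 4.43 CPM of Rpl3l, against 78.7 to 125 in the other 5 day 4 libraries, and 321 CPM of the muscle creatine kinase gene Ckm, against 1578 to 2567. In the library labelled female day 11 replicate 3, Xist was at 0.109 CPM and the Y-linked gene Ddx3y at 57.4, which goes against its label.

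As a group, the ribosomal protein genes took a larger share of all counts after injury. The 84 genes held 2.23% ± 0.289 (SD, n = 6) of counts in uninjured muscle, with libraries from 1.82% to 2.50%. At day 4 they held 4.72% ± 0.483 (n = 6), from 3.93% to 5.18%. The share was 4.18% ± 1.31 at day 7, from 2.72% to 6.41%, and 4.12% ± 1.44 at day 11, from 2.31% to 6.01%. At day 15 it was 3.53% ± 0.666, from 2.79% to 4.65%. Injured and uninjured libraries did not overlap at days 4, 7 and 15, and 1 day 11 library, the one labelled female replicate 3, fell within the uninjured range. In two-sided exact permutation tests of 6 against 6 libraries, adjusted over the 4 days, p was 0.002886 at days 4, 7 and 15 and 0.010823 at day 11. The smallest unadjusted p this design allows is 0.0021645. The rise depended on what it was measured against. When the 100 other genes most abundant in uninjured muscle were removed from the total, the members held 4.93% ± 0.836 of the remaining counts in uninjured muscle and 5.76%, 5.73%, 5.71% and 5.26% at the 4 days. Adjusted p was then 0.36364, 0.44733, 0.44733 and 0.47835 in the same exact permutation test. The 100 genes were chosen by their levels in these uninjured libraries, so their removal takes most from the uninjured totals. This test therefore cannot decide whether the rise persists without them.

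**Figure D1:**
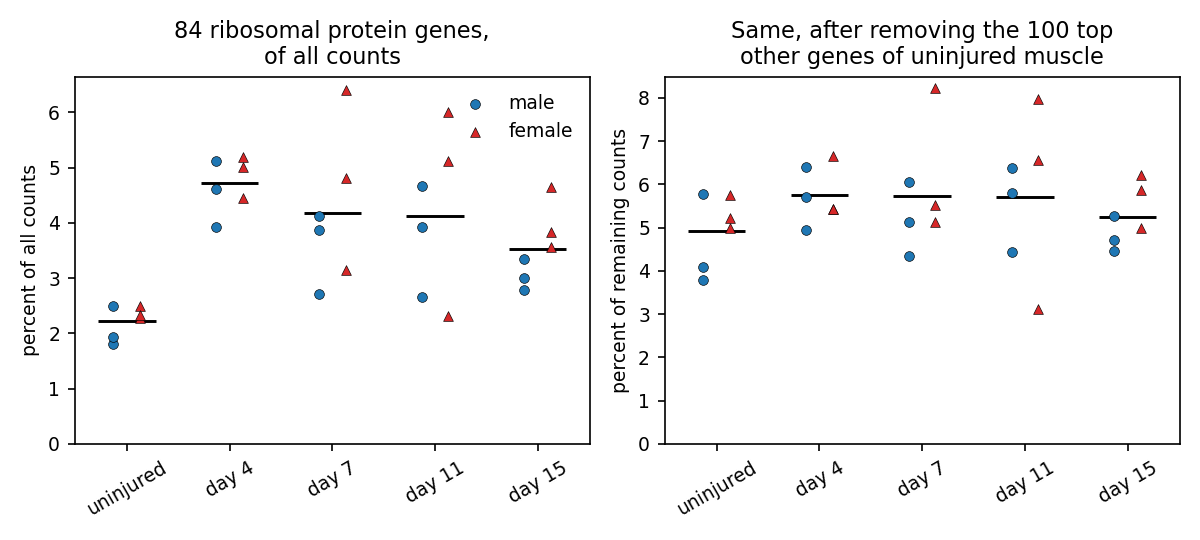
Percent of counts in the 84 ribosomal protein genes, by day, in all counts (left) and after removal of the 100 most abundant other genes of uninjured muscle (right). Points are libraries (circles male, triangles female) and bars are means of 6 libraries, which move from 2.23% to 4.72% at day 4 on the left and from 4.93% to 5.76% on the right.

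TMM factors scale libraries so that a trimmed, weighted mean of the gene changes shows no change. Scaled in this way, most members did not pass the test, and more of those that did were lower than higher. The mean factor was 0.527 over uninjured libraries and rose to 1.30, 1.19, 1.16 and 1.08 over those of the 4 days. Of the 83 members tested, 5 were higher and 15 lower at day 4, or 24.1%, against 73.1% of all 17136 genes tested, 40.1% higher and 33% lower (edgeR, adjusted p under 0.05). At day 7, 7 were higher and 21 lower, or 33.7% against 71.5% of all genes (41.6% higher, 29.9% lower). At day 11, 7 were higher and 20 lower, or 32.5% against 72.4% (42.7% higher, 29.7% lower). At day 15, 6 were higher and 25 lower, or 37.3% against 69% (39.7% higher, 29.3% lower). Under TMM scaling the share of members called was below that of all genes in all 4 comparisons. The median log2 fold change over the members was -0.09, -0.14, -0.11 and -0.28 at the 4 days, beside 0.17, 0.24, 0.32 and 0.26 over all genes. With library size alone, the direction turned: 80, 70, 71 and 58 members were higher and 1, 1, 1 and 0 lower, where 73.5%, 73.9%, 73.8% and 69.8% of all genes were higher and 8.65%, 7.07%, 8.08% and 7.94% lower. The share of members called was then 97.6%, 85.5%, 86.7% and 69.9%, against 82.2%, 81%, 81.9% and 77.7% of all genes, so that it lay above that of all genes at days 4, 7 and 11 and below it at day 15. The medians over the members were then 1.22, 1.04, 1.03 and 0.75 beside 1.47, 1.42, 1.46 and 1.30 over all genes. On either scale, the median of the members lay below that of all genes. The 4 comparisons share the same uninjured libraries. By levels in TMM-adjusted CPM, 5 members were higher and 4 lower in every day 4 library than in every uninjured library, beside 31% and 25.9% of all genes. The counts were 3 and 9 at day 7 (24.9% and 19.3% of all genes), 1 and 5 at day 11 (25.8% and 20.5%) and 6 and 10 at day 15 (24.1% and 21.1%). This split turned as well with library size alone, to 76 higher and 1 lower at day 4 (62.9% and 6% of all genes), 49 and 1 at day 7 (54.1% and 2.62%), 33 and 1 at day 11 (54.7% and 4.17%) and 51 and 0 at day 15 (51.3% and 4.48%), and the lower member at days 4, 7 and 11 was Rpl3l. Under TMM scaling, 4 members were called higher at all 4 days, namely Rpl17, Rpl3, Rpl39l and Rps4l. On the same scale 10 were called lower at all 4 days, among them Rpl29, Rpl30, Rpl3l, Rpl8, Rplp0, Rplp2, Rps2, Rps21 and Rps27l. A further 45 members passed at no day under TMM scaling. With each library left out in turn, Rpl17 lost its call in 9 of 30 fits at day 4, 2 at day 7 and 10 at day 15. Rpl3, Rpl39l and Rps4l kept theirs in all 30.

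To ask which members departed from the rest, the libraries were also scaled to the median of the ribosomal protein genes themselves. On that scale, 9 members were higher and 16 lower at day 4, where 62.4% of all genes were called, 37.1% higher and 25.2% lower. At day 7 there were 14 and 16 (60.7% of all genes, 41% higher and 19.7% lower) and at day 11 14 and 19 (63.6%, 44.8% higher and 18.9% lower). At day 15 there were 15 and 21 (59.1%, 41.4% higher and 17.7% lower). Called at all 4 days were 6 higher members, Rpl12, Rpl17, Rpl3, Rpl39, Rpl39l and Rps4l, and 7 lower ones, among them Rpl30, Rpl3l, Rplp0, Rplp2, Rps2 and Rps27l. Rpl3 and Rpl3l therefore stood at opposite sides of the family on both scales.

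**Figure D2:**
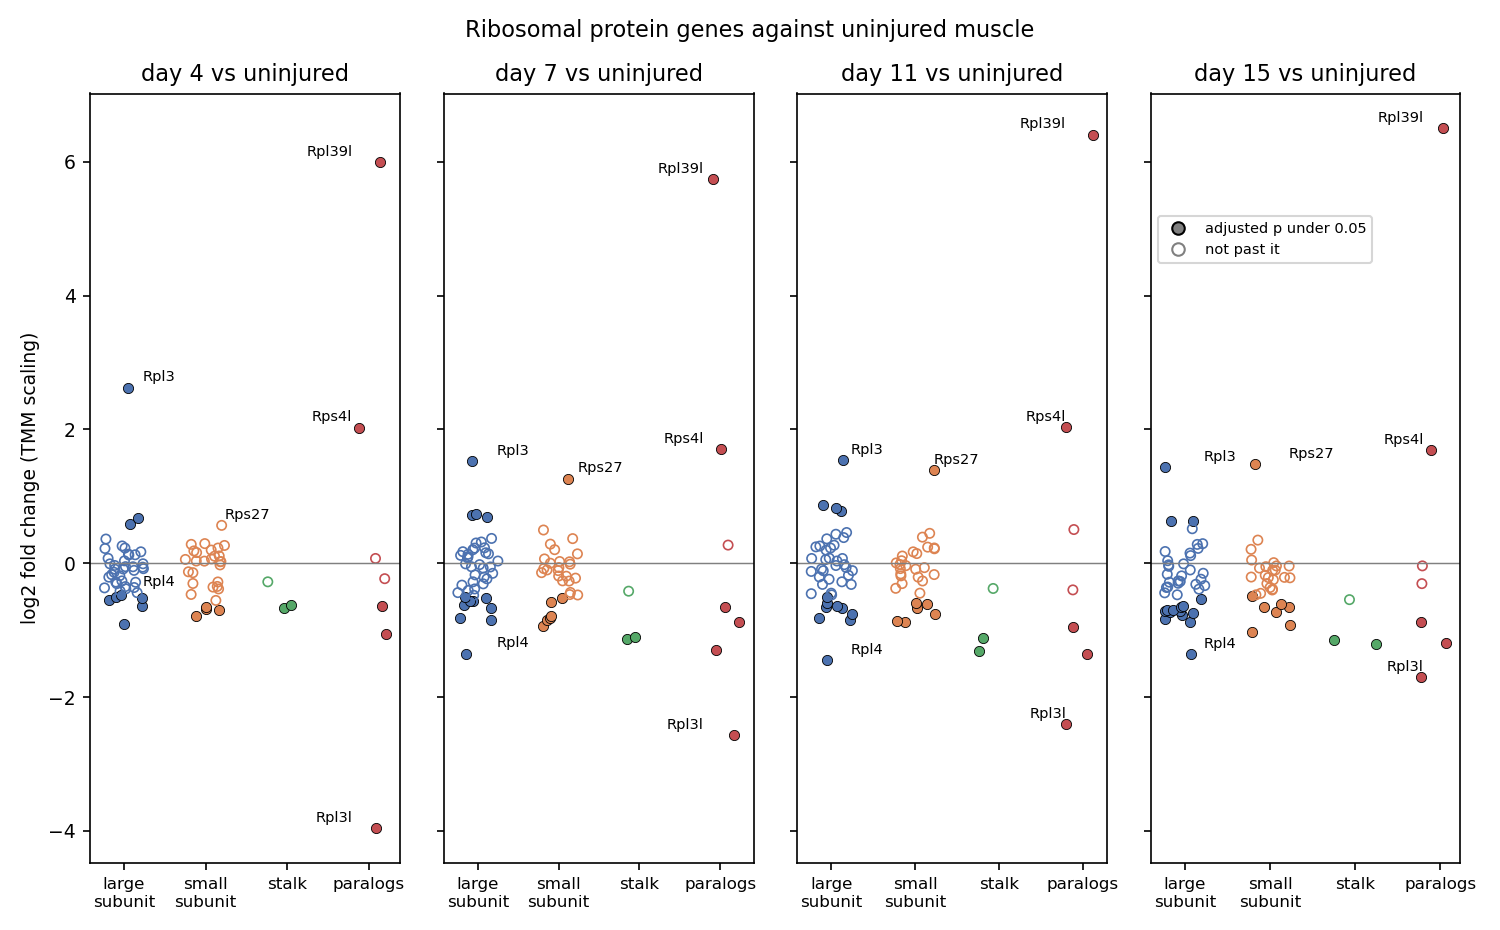
Log2 fold change of each of the 83 tested members against uninjured muscle under TMM scaling, 1 panel per day, by class. Filled points passed an adjusted p of 0.05 (5 higher and 15 lower at day 4) and open points did not; with library size alone 80 members were called higher and 1 lower at day 4. Rpl39l has 0 counts in 4 of 6 uninjured libraries, so its height depends on how the fit treats zeros.

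Among the 43 large subunit proteins, 3 were higher and 6 lower at day 4 under TMM scaling (40.1% and 33% of all genes). At day 15, 3 were higher and 13 lower (39.7% and 29.3% of all genes). With library size alone, 80 of the 83 tested members of all classes were higher at day 4 and 58 at day 15. Rpl3, which lies near the catalytic centre of the ribosome, had the largest rise and is described with its paralog below. Rpl39, a small protein of the exit tunnel wall, averaged 161 CPM ± 36.7 in uninjured muscle (111 to 213) and 257 ± 54.0 at day 4 (216 to 349), with no overlap. Its log2 fold change was 0.68 ± 0.23 (SE) at day 4, 0.74 at day 7 and 0.87 at day 11, with adjusted p of 0.0106, 0.00645 and 0.00176. At day 15 it was 0.52 with adjusted p of 0.0507. Rpl27 was at 245 CPM ± 42.8 in uninjured muscle (191 to 295) and 380 ± 25.3 at day 15 (360 to 425), again without overlap, a log2 fold change of 0.64 ± 0.23 (adjusted p = 0.0162). Rpl17, a protein near the exit of the tunnel, rose by 0.58, 0.69, 0.82 and 0.64 on the log2 scale at the 4 days.

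Rpl4, whose extension lines the exit tunnel, passed the test under TMM scaling at days 7, 11 and 15. It averaged 1243 CPM ± 204 in uninjured libraries (lowest 1067, highest 1590) and 912 ± 107 in those of day 4 (757 to 1066). The average was 489 ± 169 by day 7 (287 to 664), 454 ± 203 by day 11 (187 to 733) and 488 ± 168 by day 15 (302 to 757). All injured libraries were below all uninjured ones in TMM-adjusted CPM, with day 4 reaching almost to the uninjured range. Its log2 fold change at day 4 was -0.44 under TMM scaling (adjusted p = 0.137). With library size alone it was 0.87, a rise that passed the test (edgeR adjusted p = 0.00306). Under TMM scaling it was -1.35 ± 0.27 at day 7, -1.45 at day 11 and -1.36 at day 15 (adjusted p = 9.26e-05, 3.79e-05 and 8.89e-05). With library size alone the last 3 were -0.21, -0.31 and -0.33 and did not pass the test. Rpl36, a large subunit protein, showed the opposite time course. It fell at day 4, from 385 CPM ± 109 (248 to 507) to 206 ± 56.6 (143 to 291), a log2 fold change of -0.90 ± 0.24 under TMM scaling (adjusted p = 0.0019) and 0.40 with library size alone. Its libraries overlapped at day 4, and at days 7, 11 and 15 it was at 373, 354 and 316 CPM, within the uninjured range on average. Relative to the family its day 4 change was -0.80 (adjusted p = 0.00235).

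Among the 30 small subunit proteins, none was higher and 4 were lower at day 4 under TMM scaling (40.1% and 33% of all genes). At day 15, 1 was higher and 7 lower (39.7% and 29.3% of all genes). The higher one was Rps27, which had few counts and whose rise is uncertain, as described with its paralog below. Rps2, at the entry of the messenger channel, had the highest mean CPM of all members over the 30 libraries. It went from 2392 CPM ± 606 (1604 to 3093) to 1483 ± 157 at day 4 (1364 to 1797) and 1244 ± 216 at day 15 (1031 to 1570), with overlap at day 4 and none at day 15. Its log2 fold changes were -0.66, -0.93, -0.86 and -0.92 at the 4 days under TMM scaling, the first with adjusted p of 0.00866 and the last with 0.000591, and 0.65, 0.23, 0.28 and 0.12 with library size alone. Rps21 had -0.78, -0.82, -0.67 and -0.61 under TMM scaling and 0.52, 0.33, 0.46 and 0.42 with library size alone. Rpsa, also known as the laminin receptor, had the second highest mean over all libraries and stood at 1555 CPM ± 262 in uninjured muscle. Under TMM scaling it did not pass the test at any day, with log2 fold changes from -0.39 to -0.02. With library size alone it was higher by 0.65 to 1.28 and passed at every day (edgeR adjusted p from 2.28e-05 to 0.01413). Rps4x, encoded on the X chromosome, passed under TMM scaling at days 7 and 11 (-0.57 and -0.61) and not at days 4 and 15 (0.11 and -0.47). With library size alone it was at 0.60, 0.52 and 0.57 at days 7, 11 and 15. Each passed as a rise (edgeR adjusted p = 0.02136, 0.04052 and 0.02871).

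The stalk, the flexible arm of the large subunit that recruits translation factors, is made of Rplp0 and the pair Rplp1 and Rplp2. Rplp0 averaged 1872 CPM ± 468 in uninjured libraries (lowest 1324, highest 2308) and 1190 ± 84.3 in those of day 4 (1094 to 1309). The average was 854 ± 185 by day 7 (552 to 1031), 845 ± 352 by day 11 (379 to 1389) and 809 ± 225 by day 15 (547 to 1134). The libraries separated fully at days 4, 7 and 15, and 1 or more overlapped at day 11. The log2 fold changes were -0.62, -1.10, -1.11 and -1.20 under TMM scaling, and 0.69, 0.05, 0.02 and -0.17 with library size alone. Rplp2 was at 677 CPM ± 104 in uninjured muscle and 428, 310, 273 and 316 at the 4 days, log2 fold changes of -0.66, -1.13, -1.31 and -1.14 under TMM scaling and 0.64, 0.01, -0.18 and -0.12 with library size alone. Rplp1, at 1171 CPM ± 225 in uninjured muscle, had log2 fold changes of -0.28, -0.42, -0.38 and -0.54 under TMM scaling, none past the test. With library size alone they were 1.03, 0.75, 0.76 and 0.49. Those of days 4, 7 and 11 passed as rises (edgeR adjusted p = 0.000466, 0.00711 and 0.0063), and that of day 15 did not. Relative to the family, Rplp0 and Rplp2 stayed lower at all 4 days, by 0.52 and 0.57 on the log2 scale at day 4.

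The opposite shift of Rpl3l and Rpl3 RNA was the largest change among members with more than a few counts. Whether it took place within fibres or came with the change of cell types was not tested. In uninjured muscle Rpl3l was at 1272, 1129 and 925 CPM in males and 1613, 1592 and 1780 in females. At day 4 it was at 123, 125 and 104 in males and 78.7, 4.43 and 113 in females. It was at 409, 107 and 364 in males and 407, 75.8 and 51.3 in females at day 7, and at 497, 208 and 299 in males and 101, 151 and 336 in the libraries labelled female at day 11, the last of these being the library whose sex-linked genes go against its label. At day 15 the levels were 463, 536 and 475 in males and 317, 334 and 413 in females. Every injured library lay below every uninjured one, though not at day 15 with library size alone, day 4 was lowest, and day 15 libraries lay above all of day 4. The log2 fold changes were -3.95 ± 0.56, -2.57 ± 0.53, -2.41 ± 0.52 and -1.70 ± 0.51 at the 4 days (adjusted p = 7.39e-07, 0.000123, 0.000228 and 0.00483). With library size alone they were -2.68, -1.55, -1.26 and -0.67, and the last did not pass the test (adjusted p = 0.1753).

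Rpl3 moved the other way. It was at 89.5, 68.0 and 64.5 CPM in uninjured males and 80.3, 79.4 and 79.2 in uninjured females. At day 4 it was at 490, 436 and 441 in males and 439, 604 and 436 in females. At day 7 the levels were 166, 340 and 197 in males and 155, 284 and 184 in females, and at day 11 they were 121, 306 and 199 in males and 381, 234 and 98.3 in those labelled female, the last from the same library. At day 15 they were 190, 138 and 156 in males and 329, 178 and 292 in females. All injured libraries were above all uninjured ones. The log2 fold changes were 2.63 ± 0.28, 1.52 ± 0.27, 1.54 ± 0.27 and 1.43 ± 0.27 (adjusted p = 7.5e-09, 1.93e-05, 1.62e-05 and 4.34e-05), and 3.94, 2.73, 2.68 and 2.48 with library size alone.

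Within a library the ratio of the 2 genes needs no scaling. The log2 ratio of Rpl3l to Rpl3 counts was 4.14 ± 0.277 in uninjured muscle (3.83 to 4.49). It was -2.90 ± 2.07 at day 4 (-7.09 to -1.80) and -0.31 ± 1.65 at day 7 (-1.90 to 1.39). It was 0.21 ± 1.53 at day 11 (-1.92 to 2.04) and 1.03 ± 0.738 at day 15 (-0.05 to 1.96). No injured library reached the uninjured range, and adjusted p was 0.003367 at each day (two-sided exact permutation test, 6 against 6, over 28 ratio tests). Without female day 4 replicate 2 and female day 11 replicate 3, the differences were -6.20 at day 4 and -4.24 at day 11, beside -7.04 and -3.93 with them. Per length, Rpl3l made up 92.3% to 95.0% of the sum of both genes in uninjured libraries. On day 4 the libraries ranged from 0.616% to 19.5%, on day 7 from 18.4% to 68.9%, on day 11 from 18.3% to 77.7% and on day 15 from 44.9% to 76.7%. Days 7 and 11 were spread widely. At day 7, 3 libraries were at 61.0% to 68.9% and the other 3 at 18.4% to 21.0%.

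**Figure D3:**
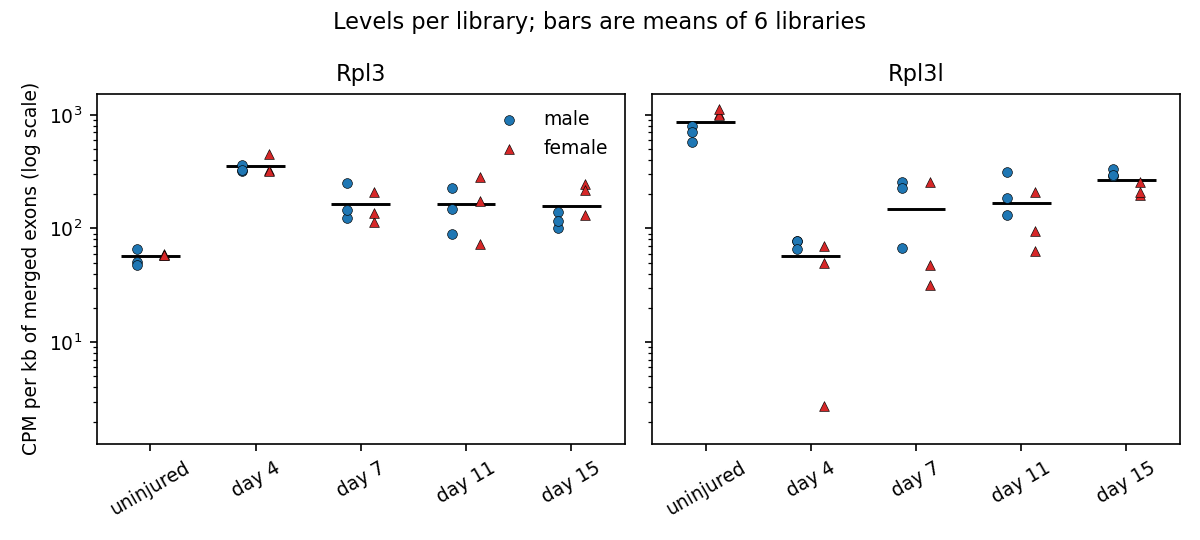
Levels of Rpl3 (left) and Rpl3l (right) in each library in CPM per kilobase of merged exons, on a shared log axis, by day. Points are libraries (circles male, triangles female) and bars are means of 6 libraries; mean Rpl3 goes from 56.9 to 351 at day 4 and 158 at day 15, and mean Rpl3l from 867 to 57.2 and 265.

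Rpl3l was compared with other genes of the mature fibre, a comparison added after the data were seen. The log2 ratio of Rpl3l to Ckm was -4.38 ± 0.221 in uninjured muscle and -4.54 ± 0.818 at day 4, overlapping (exact permutation adjusted p = 0.97048, over 12 such tests). It was -3.49, -2.84 and -2.61 at days 7, 11 and 15, above all uninjured libraries each time (adjusted p = 0.004329). Against Myh4, the heavy chain of the fastest fibres, the difference from uninjured muscle was 0.02 at day 4, 0.05 at day 7, 0.60 at day 11 and 0.80 at day 15 on the log2 scale. In exact permutation tests the last 2 had adjusted p of 0.048237 and 0.004329. Against Eef1a2, the muscle and nerve form of elongation factor 1A, the difference was -1.34 at day 4 (adjusted p = 0.004329, exact permutation) and 0.94 at day 15 (adjusted p = 0.004329), with -0.42 and 0.31 between them, which did not pass. Rpl3l counts were thus higher relative to Ckm, Myh4 and Eef1a2 at day 15 than in uninjured muscle.

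The elongation factor pair Eef1a2 and Eef1a1 moved alongside, also as RNA of whole muscle. The log2 ratio of Eef1a2 to Eef1a1 was 2.37 ± 0.310 in uninjured muscle and -3.64, -2.15, -2.45 and -2.38 at the 4 days, with no overlap (exact permutation adjusted p = 0.003367 each). Eef1a1 rose from 609 CPM ± 61.7 to 4683 ± 718 at day 4 and 2789 ± 1157 at day 15. Eef1a2 went from 3176 CPM ± 561 to 425 ± 167 at day 4 and 514 ± 120 at day 15.

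The other paralogs behaved differently from one another. Rps27l, a p53-regulated relative of Rps27, was at 160 CPM ± 26.0 in uninjured muscle (121 to 184), 76.2 ± 12.9 at day 4 (61.9 to 92.8) and 69.6 ± 14.6 at day 15 (48.2 to 89.3), with no overlap at any day. Its log2 fold changes were -1.06, -1.29, -1.36 and -1.20 under TMM scaling, and 0.24, -0.20, -0.23 and -0.17 with library size alone. Rps27 itself had 6 to 24 counts per uninjured library and 25 to 129 per injured one. These are low values for a core protein, and reads may be shared with near-identical copies, so its rise of 1.27, 1.39 and 1.49 on the log2 scale at days 7, 11 and 15 is uncertain, as is the ratio of the 2. Rpl22l1, the paralog of the RNA-binding protein Rpl22, was at 146 CPM ± 29.6 in uninjured muscle (121 to 201), 92.9 ± 27.1 at day 4 (67.6 to 133) and 117 ± 10.6 at day 15 (108 to 137). Its log2 ratio to Rpl22 fell from -0.64 ± 0.343 to -1.23 ± 0.247 at day 4 and -1.26 ± 0.259 at day 7, with overlap (exact permutation adjusted p = 0.0079051 for both). At day 11 it was -0.97 and at day 15 -0.65, which did not pass. Rpl22 did not pass the test at any day under TMM scaling, with log2 fold changes of -0.28 to -0.07. With library size alone it was higher by 0.75 to 1.22 and passed at every day (edgeR adjusted p from 7.8e-06 to 0.00199).

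Rpl7l1, a factor of large subunit assembly related to Rpl7, was at 74.9 CPM ± 9.92 in uninjured muscle (62.5 to 85.4), 63.5 ± 6.28 at day 4, 40.5 ± 9.33 at day 7 (29.3 to 54.0), 38.4 ± 9.32 at day 11 and 40.8 ± 7.58 at day 15. At day 4 it did not pass under TMM scaling (-0.23, adjusted p = 0.188). Library size alone gave a rise of 1.08 at day 4 that passed (edgeR adjusted p = 3.63e-06). Under TMM scaling it fell by 0.88, 0.96 and 0.88 on the log2 scale at days 7, 11 and 15. With library size alone it was at 0.28, 0.18 and 0.16 at these days and did not pass. Its log2 ratio to Rpl7 fell by 0.43, 0.65 and 0.58 at the same days (exact permutation adjusted p = 0.019394, 0.012626 and 0.003367). Rps4l, which RefSeq lists as a transcribed pseudogene, was at 4.24 CPM ± 1.64 in uninjured muscle (1.92 to 6.62) and 17.3 ± 3.66 at day 4 (12.1 to 22.2), with no overlap. Its log2 fold changes were 2.03, 1.71, 2.03 and 1.69, and its log2 ratio to Rps4x rose by 1.97, 2.27, 2.68 and 2.20 (exact permutation adjusted p = 0.003367 each). Reads shared with other Rps4 copies would count here too.

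Rpl39l, known mainly from testis, was near absence in uninjured muscle. The 3 female uninjured libraries held 0 counts and the 3 male ones 0, 2 and 14, while injured libraries held 16 to 289. Summed over libraries and divided by effective depth, it was 16.9 times as high at day 4, 14.0 times at day 7, 21.0 times at day 11 and 21.9 times at day 15. The 95% exact interval, for counting error only and on halved counts because both reads of a pair appear to be counted, ran from 8.48 to 39.4 at day 4 and from 10.9 to 51.5 at day 15. Male uninjured replicate 1 held 14 of the 16 uninjured counts. Without it, 2 counts remain and the ratio was 114 at day 4 (20.3 to 4501), 94.1 at day 7, 141 at day 11 and 148 at day 15 (26.1 to 5858), so 1 library sets the size of the change. The adjusted p from edgeR was 3.44e-06 at day 4. Even so, its level stayed far below Rpl39, at 2.21 CPM per kilobase against 420 at day 4. Rpl32l, with 2 to 96 counts per library, did not pass at any day. Rpl10l, a testis paralog of Rpl10, had no count in any of the 30 libraries, which allows up to 3 counts in each, and was not tested.

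**Figure D4:**
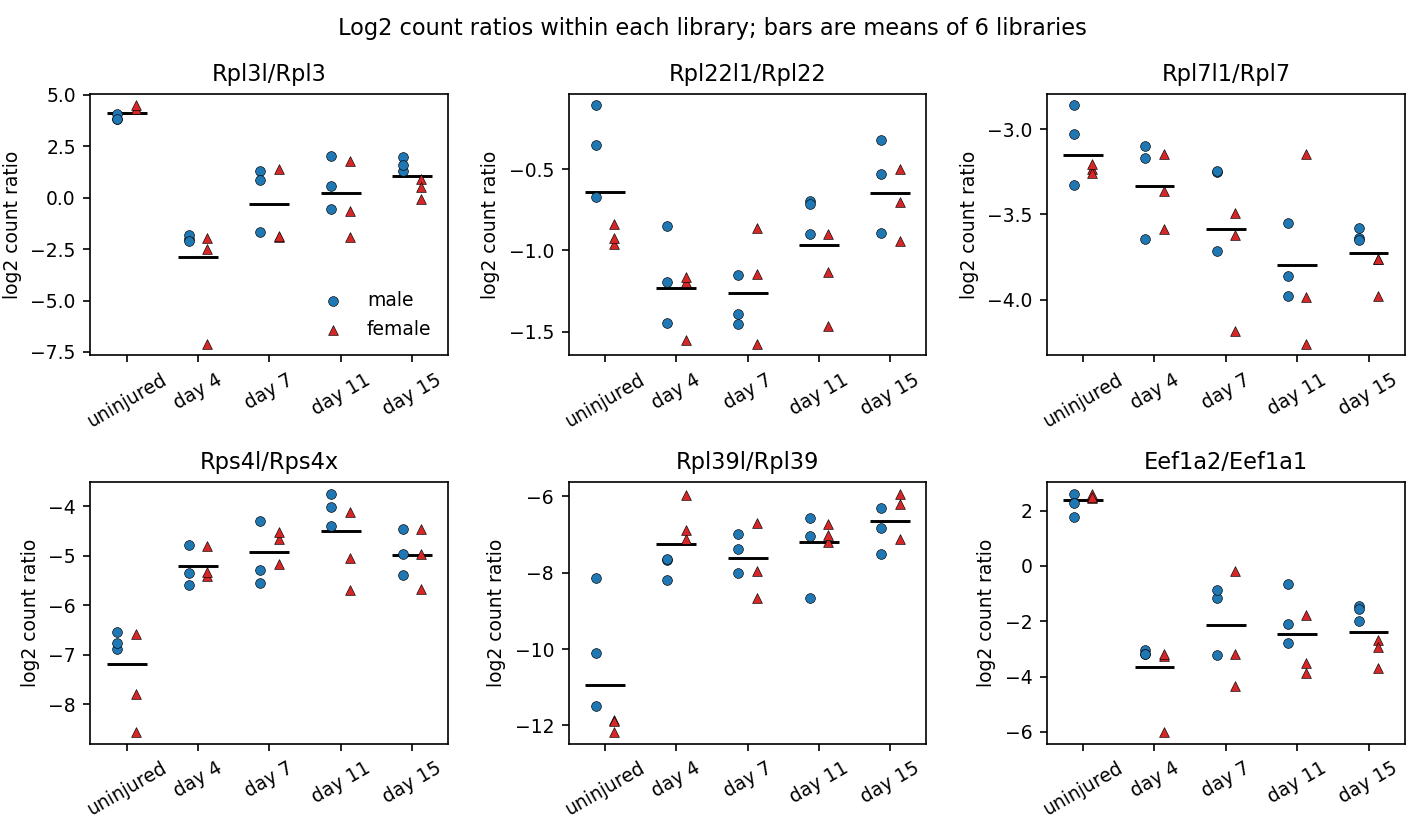
Log2 ratio of counts within each library for 5 paralog pairs and the elongation factor pair, by day, with a separate vertical axis per panel. Points are libraries (circles male, triangles female) and bars are means of 6 libraries; Rpl3l to Rpl3 falls from 4.14 to -2.90 at day 4 and stands at 1.03 at day 15, while Rpl39l to Rpl39 and Rps4l to Rps4x have higher means after injury.

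Between injured days, members were called under TMM scaling only in the comparisons with day 4. From day 4 to day 7, 3 were higher and 8 lower (13.3%, against 35.2% of all genes). Rpl3l rose by 1.38 (adjusted p = 0.0357) and Rpl36 by 0.85 (adjusted p = 0.00955) on the log2 scale, and Rpl3 and Rpl4 fell by 1.10 and 0.91. From day 4 to day 15, 4 were higher and 15 lower (22.9%, against 52.1%). Rpl3l rose by 2.25 (adjusted p = 0.000887) and Rpl3 fell by 1.19 (adjusted p = 0.000625), and Rpl4 fell by 0.92. None passed from day 7 to day 11, where 0.0584% of all genes did, or from day 11 to day 15, where 4.24% did (edgeR). The number with an unadjusted p under 0.05 was 0 in both, and DESeq2 also called none. With library size alone, more members were lower from day 4 to day 15 than under TMM scaling, as counted in the last section.

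No member passed the test for females against males in uninjured muscle, where 0.642% of all genes did, or for a sex difference in the response at days 4, 7, 11 and 15, where 0.0467%, 0.123%, 0.0584% and 0.21% did (edgeR). The day 11 test counts the library labelled female replicate 3 as female, and without it 0 members passed too. At an unadjusted p under 0.05 there were 4 members in the first and 1 in each of the others. DESeq2 called only Rpl39l, in uninjured muscle and in the sex difference at days 4 and 15, where female uninjured libraries hold 0 counts. The median log2 difference over the members in uninjured muscle was 0.36 under TMM scaling, higher in females. The TMM factors of uninjured libraries were 0.484 to 0.491 in females and 0.553 to 0.597 in males. A lower factor gives higher levels, so the size of this difference depends on the scale. The share of all counts held by the members overlapped between the sexes in uninjured muscle, from 1.82% to 2.50% in males and from 2.28% to 2.50% in females.

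Features of sequence were compared as a description. Transcript length, taken from GENCODE for 73 of the 76 core members, had a Spearman correlation across genes with the log2 fold change of 0.12 at day 4 and -0.25 at day 15. From day 4 to day 15 it was -0.50. Genes share libraries and are not independent replicates. Over the 24 shortest transcripts (345 to 597 bases) the median change from day 4 to day 15 was 0.12 on the log2 scale, and over the 25 longest (914 to 2045 bases) it was -0.30. Core members with a tract in their start window (27) and without (29) had median log2 fold changes of -0.03 and -0.05 at day 4 and -0.16 and -0.39 at day 15.

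Other genes of protein synthesis were counted from lists. For scale, 40.1% of all genes were higher and 33% lower at day 4 under TMM scaling, and 39.7% and 29.3% at day 15. With library size alone these shares were 73.5% and 8.65% at day 4, and 69.8% and 7.94% at day 15. The lists were not tested against these shares. Of 5 ribosomal protein genes outside the symbol rule, 2 were lower at day 4 and none higher under TMM scaling, among them Rpl36al, a paralog of Rpl36a, with a log2 fold change of -1.24 (0.06 with library size alone). Of the 5, 3 were higher and 0 lower at day 4 with library size alone. Of 48 translation factors, 4 were higher and 35 lower at day 4, with a median of -0.75, and 2 and 42 at day 15. With library size alone the split was 32 and 5 at day 4, with a median of 0.56, and 9 and 10 at day 15, with a median of 0.022. Eif1, which guards start codon choice, was lower on both scales at day 4, by 2.20 and 0.91. Of 60 ribosome biogenesis genes, 12 were higher and 26 lower at day 4 and 4 and 34 at day 15, and with library size alone 55 and 0 and then 34 and 6. The nucleolar genes Npm1 and Nop58 rose at day 4 by 1.45 and 1.43 on the log2 scale, and Nop10 had -1.35 (-0.05 with library size alone). Of 21 growth regulators, 5 were higher and 7 lower at day 4 under TMM scaling, and 13 and 1 with library size alone. Myc, which drives ribosome production, rose from 6.66 CPM ± 3.83 to 25.6 ± 7.05, Mycl from 0.199 ± 0.257 to 11.3 ± 3.42, and Akt1s1, an inhibitor of mTORC1, went from 359 ± 70.3 to 79.8 ± 16.3. For comparison, 77 of 78 mitochondrial ribosomal protein genes were lower at day 4 under TMM scaling, with a median of -1.35, and 28 of 38 proteasome genes, with a median of -0.82. With library size alone the mitochondrial list split into 18 higher and 26 lower, and the proteasome list into 23 and 0. At day 4 the medians of these lists lay below that of the cytosolic ribosomal proteins on both scales, a difference given without a test.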

How the data were processed

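Total RNA of 30 tibialis anterior libraries was sequenced. RNA extraction and library construction were done by a commercial laboratory, per the labels' protocols. The deposited values are raw counts per gene, 1 table per library; STAR, edgeR and mm39 are named in the submitters' processing notes, without versions, and the file headers name STAR alignments of 2 read files. Library sexes, days and replicate numbers come from the labels.

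Counts were analysed with edgeR 4.0.16 in R 4.3.3 (limma 3.58.1): filterByExpr left 17136 genes, TMM factors, 10 group means in 1 quasi-likelihood fit, Benjamini-Hochberg adjustment over all genes, threshold 0.05. A further fit took its scale from the ribosomal protein genes with a mean CPM of at least 10. CPM values use effective library sizes. Ratios within libraries had 1 count added. DESeq2 1.42.0, other scalings and filters, and omission of each library were alternatives. The fits were tested on simulated data.

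Members and lists were chosen with earlier results of these data known. Genes named are all paralog pairs and stalk genes, Rpsa, the 3 largest rises and falls among called members with a mean CPM of at least 5 at each day on either scale, up to 2 per direction between days, the 3 highest and lowest members, and the 3 largest called changes of each pathway list. Rpl12, Rpl17, Rpl29, Rpl30, Rpl8 and Rps21 were named after their values were seen. Some genes that the rule or the counts cover are not reported here. Lengths are from GENCODE M21 and start windows from RefSeq (GRCm38.p6); 79 of 84 members had a length and 63 a window. The 10 pseudogene symbols held at most 0.0578% as many counts as the members. Replicates of a group differed by more than counting noise (lowest chi-square per degree of freedom 15.4).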

Additional observations from a re-analysis of the deposited data

Results flagged for a closer look

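Among the 40 groups of 6 libraries in which a paralog ratio or the share of counts was examined, 3 held a library whose gap to the others, divided by the range of the group, was above Dixon's 95% critical value. Chance alone gives about 1 such group in 20. Female day 4 replicate 2 had a log2 ratio of Rpl3l to Rpl3 of -7.088, against -2.479 to -1.801 in the other 5 day 4 libraries. The same library had a log2 ratio of Eef1a2 to Eef1a1 of -6.008, against -3.259 to -3.03. Male day 11 replicate 1 had a log2 ratio of Rpl39l to Rpl39 of -8.661, against -7.205 to -6.575.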

How the results depend on the processing

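Library size alone moved the results most: members higher and lower became 80 and 1 at day 4, 70 and 1 at day 7, 71 and 1 at day 11 and 58 and 0 at day 15, with 1 higher from day 4 to day 7, and 1 higher and 32 lower from day 4 to day 15. In all, 50, 49, 47 and 60 of 83 members at days 4, 7, 11 and 15 were below 0 with TMM and above 0 with library size alone. Among the genes followed through every alternative, those that turned sign (log2 fold change, days in that order unless named) were Rps2 0.65, 0.2252, 0.28 and 0.1169, Rps21 0.52, 0.3311, 0.4644 and 0.4169, Rpl22 1.22, 1.10, 1.02 and 0.75, Rpl22l1 0.66, 0.51, 0.73 and 0.73, Rpl7 1.25, 0.73, 0.93 and 0.74, Rpl7l1 1.08, 0.28, 0.18 and 0.16, Rplp1 1.03, 0.75, 0.76 and 0.49, and Rpsa 1.28, 0.95, 0.93 and 0.65. At days 7, 11 and 15 they were Rpl10 0.87, 0.82 and 0.58 and Rps4x 0.60, 0.52 and 0.57. Rplp0 had 0.69, 0.052 and 0.023 at days 4, 7 and 11, Rplp2 0.64 and 0.01 at days 4 and 7, and at day 4 Rpl36 had 0.40, Rps27l 0.24 and Rpl4 0.87. Scaling to the family gave 9, 14, 14 and 15 higher at the 4 days, 7 from day 4 to day 7 and 14 from day 4 to day 15, with Rpl22 at 0.0708 (day 7), Rpl7 at 0.0423 and Rpsa at 0.0735 (day 4). Fits on only the groups compared gave 10 higher at day 4, 42 lower at day 15, 1 higher from day 4 to day 7 and 7 from day 4 to day 15, with Rpl7 at 0.0198 and Rpsa at 0.0471 (day 4), and relative to the family 14, 7 and 9 higher at days 4, 7 and 11. With no filter, the family fit had 5 higher and 9 lower at day 4 and 10 lower at day 15, and Rpsa was at 0.0012 (day 4). DESeq2 called 1 member in each of uninjured females against males and the sex differences at days 4 and 15, and Rpsa at day 4 was 0.0113 there and with RLE scaling. Without the 2 libraries that stood apart, a choice made after seeing the data, 11 were higher at day 11, 2 were higher from day 4 to day 15, and Rpl22 at day 11 was 0.0163. The rise in share without the 100 top genes was 0.827, 0.802, 0.78 and 0.324 percentage points. The replicate block moved 0 of 29 counts by over 1.5 times and changed the call or direction of 0 of 98 gene values and medians. Same-numbered libraries deviated together with a mean correlation of 0.0125 and 12 of 30 were closest to their own number, so numbers did not pair libraries. Leaving out each library in turn gave 3 to 6 higher and 9 to 20 lower at day 4 (extremes without male day 4 replicate 3 and without male uninjured replicate 1), 7 to 11 higher at day 11 (11 without female day 11 replicate 3), 0 to 3 higher and 3 to 12 lower from day 4 to day 7 (lowest for both without male day 7 replicate 1), 2 to 4 higher and 8 to 22 lower from day 4 to day 15 (8 without female day 15 replicate 2), and 11 to 22 lower relative to the family at day 15 (11 without female uninjured replicate 2 or female day 15 replicate 2). The difference from uninjured muscle in the log2 ratio of Rpl22l1 to Rpl22 at day 15 ranged from -0.0709 to 0.10. Single genes turned sign without a library only near 0: Rpl22 at day 11 (-0.2367 to 0.0171), Rpl7 at day 4 (-0.1186 to 0.0162) and Rpsa at day 4 (-0.0857 to 0.0462). The cause of these changes was not tested. Low counts limit the results for Rps27, Rpl32l and Rpl39l.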
